A study of Homo sapiens with 5 samples.

Results

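The 9 genes described here, MCM2, MCM3, MCM4, MCM5, MCM6, MCM7, CDC45, CDC6 and PCNA, encode the helicase that opens DNA at replication origins, factors that load and activate it, and the sliding clamp of the replication fork. They were found by gene symbol among 23340 genes in a table of exon counts and 22009 in a table of intron counts, and all 9 were found in both. The counts come from A549 cells, an adherent human lung carcinoma line, grown in RPMI medium with 10% FBS. Cells were transfected with Lipofectamine carrying 50 nM of an oligo called 23N Randomer for 9 h or 16 h (randomer), with the same dose of a Control oligo for either time, or with Lipofectamine alone for 16 h (mock). Each of these 5 groups is 1 library of total RNA depleted of ribosomal RNA, so a value at 1 time has no replicate check, and nothing in the labels says whether the times came from separate cultures. What the oligos are made of is not stated in the labels. The title of the series speaks of double-stranded RNA from inverted repeats in introns and between genes, of RNase L, a nuclease that cuts single-stranded RNA, and of the interferon system.

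In dividing cells the origin recognition complex, together with CDC6 and CDT1, loads the ring of MCM2 to MCM7 onto DNA in G1 phase. CDC45 and the GINS proteins join that ring at the start of S phase to make the active helicase, and PCNA then encircles DNA behind it and holds the polymerases in place. Transcription of most of these genes is known to rise toward S phase under the E2F factors, which are held back by the retinoblastoma protein.

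The promoters of MCM3 and MCM6, with lower exon levels in both randomer libraries, of MCM7, with a fitted exon change near 0, and of CDC6, whose exon counts followed another course, are shown to make the E2F words visible. Each is the 250 bases before the RefSeq start in GRCh38.p14, read 5′ to 3′ on the strand of the gene. MCM7 has 3 such starts, and the most upstream is used. The positions are chr6:52284743-52284992 for MCM3 (minus strand), chr2:135876444-135876693 for MCM6 (minus strand), chr7:100101398-100101647 for MCM7 (minus strand) and chr17:40287629-40287878 for CDC6 (plus strand). Capitals mark the E2F words.
MCM3: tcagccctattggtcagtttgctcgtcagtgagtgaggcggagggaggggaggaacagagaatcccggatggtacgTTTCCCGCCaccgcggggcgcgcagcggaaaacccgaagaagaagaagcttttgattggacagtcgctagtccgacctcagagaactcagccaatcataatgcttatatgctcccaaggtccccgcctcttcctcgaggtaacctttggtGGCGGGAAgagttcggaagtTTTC
MCM6: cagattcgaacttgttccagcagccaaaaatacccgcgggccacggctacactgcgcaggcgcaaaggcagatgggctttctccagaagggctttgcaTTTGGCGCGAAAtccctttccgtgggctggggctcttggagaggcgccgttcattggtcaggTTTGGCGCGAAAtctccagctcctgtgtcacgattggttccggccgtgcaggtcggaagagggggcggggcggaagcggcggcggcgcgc
MCM7: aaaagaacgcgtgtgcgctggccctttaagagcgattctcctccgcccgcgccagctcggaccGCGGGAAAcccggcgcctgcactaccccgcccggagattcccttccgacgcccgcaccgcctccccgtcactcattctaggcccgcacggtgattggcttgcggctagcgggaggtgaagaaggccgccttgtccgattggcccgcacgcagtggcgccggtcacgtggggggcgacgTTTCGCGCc
CDC6: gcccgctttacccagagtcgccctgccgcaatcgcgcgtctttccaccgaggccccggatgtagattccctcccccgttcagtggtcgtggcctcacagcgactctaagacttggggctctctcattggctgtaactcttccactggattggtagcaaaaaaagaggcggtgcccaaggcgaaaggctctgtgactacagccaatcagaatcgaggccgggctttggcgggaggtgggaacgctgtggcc

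In MCM3 the words start 174 and 24 bases before the start, and another, TTTCGCGC, begins 4 bases before it and runs past the printed end. MCM6 holds the same pair of overlapping words in 2 places, 152 and 90 bases before the start, where TTTGGCGC runs into the reverse complement of TTTCGCGC. MCM7 holds the reverse complement of TTTCCCGC 187 bases and TTTCGCGC 9 bases before the start used. The windows of its other starts held no word. CDC6 has TTTGGCGC 7 bases after the start, outside the printed stretch. Its printed stretch holds tttggcgg, which differs from that word in the last letter and was not searched. Other forms of an E2F site were not searched either, so a stretch without capitals is not shown to lack one. The words searched on both strands were TTTCCCGC, TTTCGCGC, TTTGGCGC, TTTGCCGC and GGCGGGAA, of which the first overlaps the reverse complement of the last. A window of 300 bases around the start was found for 7 of the 9 genes, MCM4 and MCM5 being the others, and 6 of the 7 held a word in at least 1 of their windows. Of all 27305 genes with a window, 6.67% did. CDC45 had none in its 3 windows. Words stood in the promoter of MCM3, which was called in exon reads, and in promoters of genes not called in them. MCM4, the other gene called in exon reads, had no window, so whether words go with calls was not tested. A match is a string of letters, and binding was not measured.

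Exon counts summed to between 1476223 and 2629053 per library and intron counts to between 603142 and 1947593. Introns held 49.7% and 56.9% of all counts with randomer at 9 h and 16 h, against 22.0% and 22.9% in control oligo cells, with 23.6% in mock, and RN45S, the ribosomal RNA precursor, took 16.4% of exon counts in the 16 h randomer library, elsewhere 6.78% to 11.5%. Of 10 markers of A549 and airway epithelium, KRT8, KRT18, CDH1, ALDH1A1 and AKR1B10 had counts in every library, KRT19, EPCAM and SFTPC had a few in randomer libraries alone (at most 15), and NKX2-1 and SFTPB were at 0 in all 5. The 10 summed to 3778 and 2959 CPM (counts scaled by TMM-adjusted library size) after 9 h and 16 h of randomer. In control oligo cells the sum was 5363 and 5216, with 4816 in mock. This sum was lower in both randomer libraries, as was the sum of the MCM genes below. Not every marker was lower: KRT19, EPCAM and SFTPC went the other way, and CDH1 in CPM was not below control oligo at either time. Of 13 markers of leukocytes, endothelium, fibroblasts and erythroid cells, 6 and 7 had counts with randomer at 9 h and 16 h, against 3 and 2 in control oligo cells, with 2 in mock. Their summed level was 203 and 177 CPM with randomer, 193 and 117 in control oligo cells, with 158 in mock. COL1A1, a collagen gene, had counts in every library, and without it the sum was higher with randomer, at 58.7 and 95.3 CPM, against 3.76 and 12.5 in control oligo cells, with 4.84 in mock. PTPRC, CD3E, COL1A2, HBB and HBA1 were at 0 throughout, and the part of these markers in the results below was not tested. Levels are relative to the other RNA of a library, so fewer cells in S phase, less RNA of a gene per cell and a change in the rest of the RNA cannot be told apart.

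With randomer, exon counts of MCM3 and MCM4 fell, and those of the other 7 genes did not pass the test. The fit compared both randomer libraries with both control oligo libraries with time as a term, by edgeR's quasi-likelihood test, and a gene is called at a Benjamini-Hochberg adjusted p under 0.05 over all genes tested. MCM3 and MCM4 were the 2 of 9 called lower and 0 were called higher, against 3.16% and 6.9% of 11407 genes tested. Fitted log2 changes were below 0 for 8 of the 9, with a median of -0.30, beside 0.04 for all genes. At an unadjusted p under 0.05, 3 of the 9 were lower and 0 higher, against 1010 and 1448 of the 11407 genes. DESeq2 called the same 2 genes lower and none of the 9 higher.

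MCM4, a subunit of the catalytic core of the ring together with MCM6 and MCM7, had the most exon reads of the 9 genes: 1155 and 494 counts with randomer at 9 h and 16 h, against 2357 and 2159 in control oligo cells, with 1825 in mock. Scaled to CPM, these were 605 and 349 with randomer, 886 and 817 in control oligo cells, with 981 in mock. Both randomer libraries lay below the other 3, and the 16 h library lowest. MCM4 fell 1.85-fold (log2 change -0.89, SE 0.21, edgeR adjusted p = 0.00135). The untested log2 ratio of randomer over control oligo was -0.55 at 9 h (95% counting interval -0.65 to -0.45) and -1.23 at 16 h (-1.37 to -1.09), and over mock at 16 h it was -1.49. Counting intervals are exact binomial, take each count as a separate molecule and hold no variation between cultures.

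MCM3, which sits beside MCM5 in the ring, had 475 and 198 exon counts after 9 h and 16 h of randomer, against 954 and 852 in control oligo cells, with 581 in mock. In CPM both randomer libraries, at 249 and 140, lay below control oligo, at 359 and 322, and mock, at 312. MCM3 fell 1.81-fold (log2 change -0.86, SE 0.25, edgeR adjusted p = 0.0136), with an untested log2 ratio of -0.53 after 9 h and -1.21 after 16 h (-1.44 to -0.98), and -1.16 over mock. Both calls depend on the time term and on single libraries. Without that term the edgeR adjusted p was 0.123 for MCM3 and 0.0840 for MCM4, with log2 changes of -0.80 and -0.83. In such fits leaving out randomer at 16 h, control oligo at 9 h or control oligo at 16 h gave 0.396, 0.333 and 0.209 for MCM3 and 0.253, 0.250 and 0.162 for MCM4. Without randomer at 9 h both were called (0.0240 and 0.00753). The log2 change then ranged from -1.28 without randomer at 9 h to -0.45 without randomer at 16 h for MCM3, and from -1.29 to -0.49 for MCM4.

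MCM6 was also lowest in both randomer libraries but missed the threshold. It had 332 and 174 exon counts after 9 h and 16 h of randomer, 581 and 626 in control oligo cells, with 498 in mock, with a fitted value of -0.63 on the log2 scale (SE 0.27, edgeR adjusted p = 0.133). At single times its log2 ratio over control oligo was -0.33 at 9 h and -0.95 at 16 h (-1.20 to -0.70), and over mock -1.12. PCNA, the sliding clamp, had 434 and 307 counts with randomer, 784 at each time in control oligo cells, with 673 in mock. The fit gave -0.41 for PCNA on the log2 scale (SE 0.25, edgeR adjusted p = 0.339), with ratios of -0.37 and -0.45 at 9 h and 16 h and -0.74 over mock. In CPM both randomer libraries of MCM6 and of PCNA lay below the other 3.

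MCM7, the partner of MCM3 and MCM4 in the ring, had exon levels close to those of control oligo at each time. It had 513 and 277 counts with randomer at 9 h and 16 h, 752 and 537 in control oligo cells, with 490 in mock, giving a fitted -0.06 on the log2 scale (SE 0.25, edgeR adjusted p = 0.932), with ratios of -0.07 and -0.06 at 9 h and 16 h. At 16 h both oligo libraries were lower than mock, by log2 ratios of -0.43 with randomer and -0.37 with control oligo. MCM2, whose tail binds histones, had 432 and 240 counts with randomer, 614 and 510 in control oligo cells, with 513 in mock (log2 change -0.11, SE 0.26, edgeR adjusted p = 0.882). MCM5 had the fewest exon reads of the 6 subunits, 128 and 80 with randomer, 218 and 182 in control oligo cells, with 127 in mock (log2 change -0.29, SE 0.39, edgeR adjusted p = 0.756). In CPM both randomer libraries of MCM5, at 67.0 and 56.5, lay below control oligo, at 81.9 and 68.9, and narrowly below mock, at 68.3, at 9 h. A change that missed the threshold is not shown to be absent, and whether the subunits differ in their fitted changes was not tested.

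**Figure D1:**
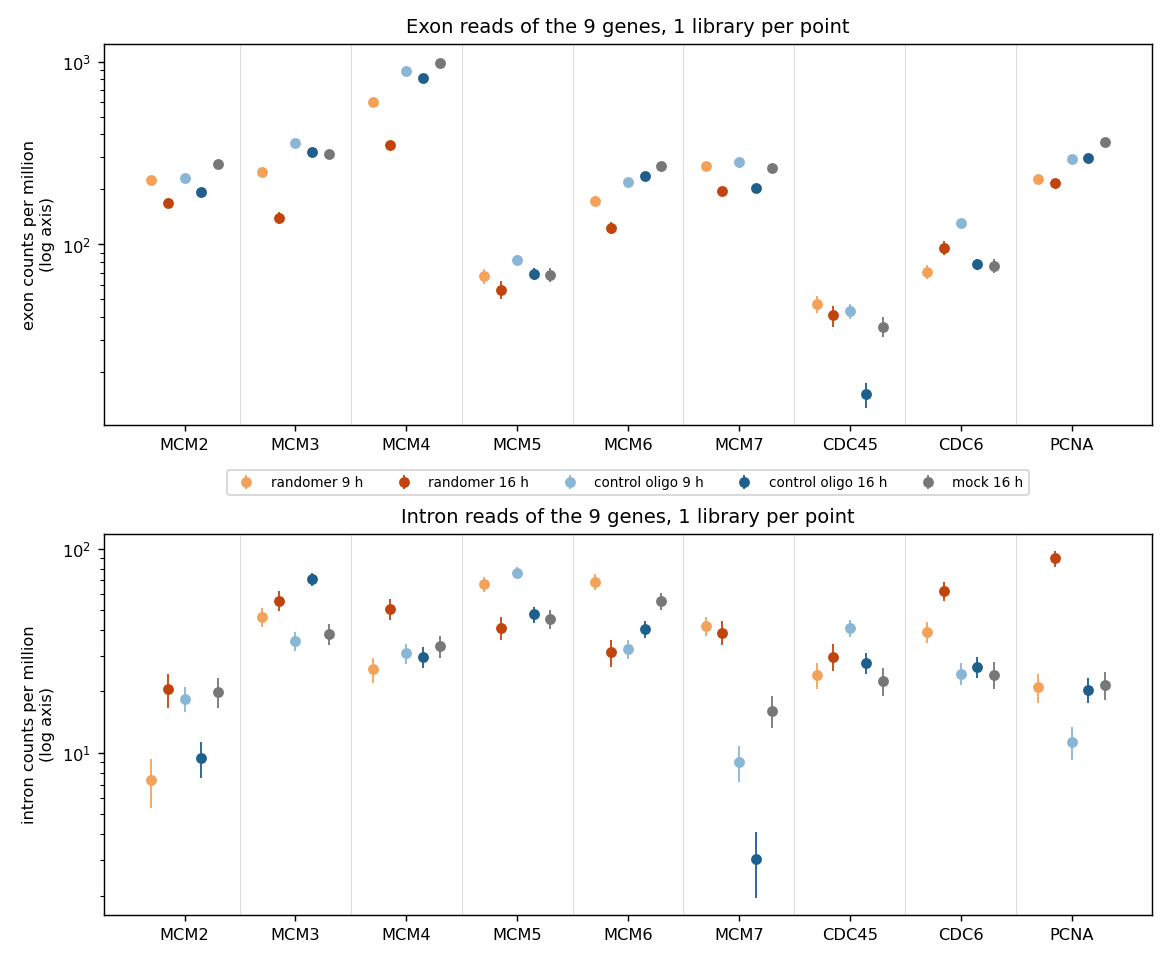
Exon (top) and intron (bottom) CPM of the 9 genes on log axes, 1 point per library, with bars of ± the square root of the count (counting error). For MCM3, MCM4, MCM5, MCM6 and PCNA both randomer points lie below the control oligo and mock points in exon reads, for MCM5 narrowly at 9 h. For CDC45 the control oligo library at 16 h is the low one.

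The subunits' shares of the exon reads need no scaling between libraries. They are parts of 1 total, so a lower share of MCM4 raises other shares without any rise in the levels of those genes. MCM4 held 38.1% and 33.8% of the summed MCM2 to MCM7 exon counts after 9 h and 16 h of randomer, against 43.0% and 44.4% in control oligo cells, with 45.2% in mock. The exact Clopper-Pearson 95% intervals, 36.3% to 39.8% and 31.3% to 36.3% with randomer, did not meet those of the other 3 libraries, whose lowest bound was 41.7%. MCM7 held 16.9% and 18.9% with randomer, 13.7% and 11.0% in control oligo cells, with 12.1% in mock, and MCM2 14.2% and 16.4%, against 11.2% and 10.5%, and 12.7%. The intervals of MCM7 with randomer lay above those of the other 3 libraries, and those of MCM2 overlapped mock at 9 h. MCM3 held 15.7% and 13.5% with randomer, 17.4% and 17.5% in control oligo cells, with 14.4% in mock, which lay between both randomer values. MCM5 held 4.22% and 5.47% with randomer, 3.98% and 3.74% in control oligo cells, with 3.15% in mock. Its interval with randomer at 16 h (4.36% to 6.76%) lay above those of control oligo at 16 h and of mock. MCM6 held between 10.6% and 12.9% in every library. The summed counts of the 6 subunits were 3035 and 1463 with randomer, 5476 and 4866 in control oligo cells, with 4034 in mock, with log2 ratios over control oligo of -0.37 at 9 h and -0.83 at 16 h, beside -0.07 and -0.11 for the median of 6593 genes averaging 50 or more counts.

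**Figure D2:**
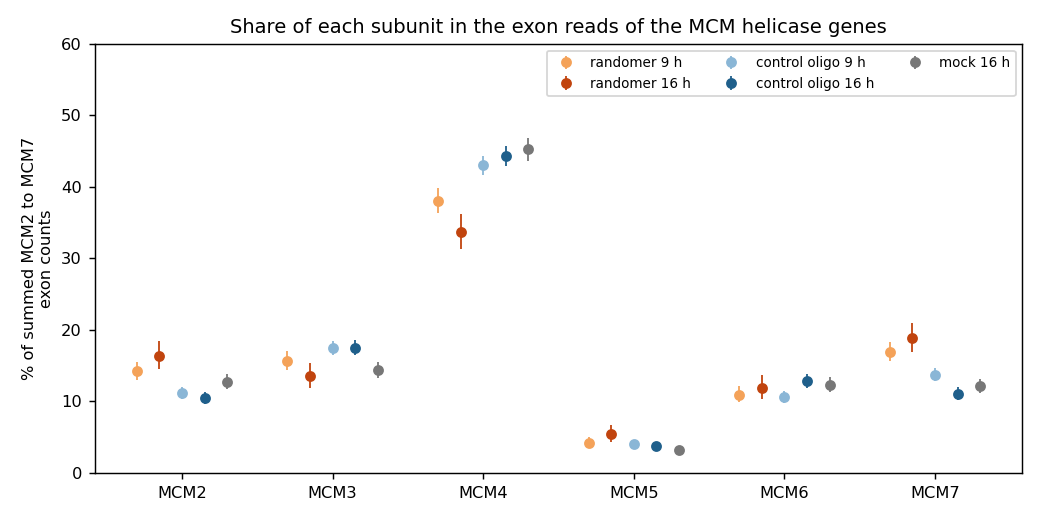
Share of each subunit in the summed MCM2 to MCM7 exon counts (percent), 1 point per library with exact 95% intervals. MCM4 lies lower in both randomer libraries, at 38.1% and 33.8%, and MCM7 higher, at 16.9% and 18.9%. Shares are parts of 1 total, and the fitted exon log2 change of MCM7 itself was -0.06.

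CDC6, the ATPase that helps load the ring, and CDC45, which activates it, had other orders of libraries than MCM3 and MCM4. CDC6 had 135 and 136 exon counts after 9 h and 16 h of randomer, 349 and 206 in control oligo cells, with 142 in mock. Control oligo at 9 h stood highest, at 131 CPM, and the other 4 libraries lay between 70.7 and 96.0. Its log2 ratio over control oligo was -0.89 at 9 h (-1.19 to -0.60) and 0.30 at 16 h (-0.02 to 0.62), and the fit over both times gave -0.30 (SE 0.35, edgeR adjusted p = 0.704). CDC45 had 90 and 58 counts with randomer, 115 and 40 in control oligo cells, with 66 in mock. Its log2 ratio over control oligo was 0.12 at 9 h (-0.29 to 0.54) and 1.44 at 16 h (0.83 to 2.05), but control oligo at 16 h was itself low, at 15.1 CPM against 35.5 in mock cells, and randomer over mock was 0.21 (-0.33 to 0.74). The fitted log2 change of CDC45 was 0.75 (SE 0.51, edgeR adjusted p = 0.427).

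At a single time, 0 of the 9 genes were at least 2-fold lower or higher with randomer at 9 h, where 7.57% of 6593 genes were lower and 9.09% higher. At 16 h MCM3 and MCM4 were at least 2-fold lower and CDC45 higher, 2 and 1 of 9, against 11.4% and 11.7% of genes. Over mock at 16 h, MCM3, MCM4 and MCM6 were at least 2-fold lower, 3 of 9 against 12.1% of genes, and 0 higher, against 13.3%, and the median of the 9 was -0.70 beside -0.09 for all genes. This comparison shares the randomer library with the one before it. Control oligo over mock at 16 h had a median of -0.26 over the 9 beside -0.00431 for all genes. CDC45 was the 1 of 9 at least 2-fold lower, against 4.1% of genes, and 0 were higher, against 5.72%.

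Between times, 16 h libraries were mostly lower than 9 h libraries with either oligo. The median log2 ratio of 16 h over 9 h was -0.42 with randomer, with 8 of 9 genes below 0, and -0.25 with control oligo, with 7 of 9 below 0, beside -0.03 and -0.00409 for all genes. With randomer MCM3 (-0.83) and MCM4 (-0.79) were lowest, and CDC6 was the gene above 0 (0.44, 0.09 to 0.80). With control oligo CDC45 (-1.51) and CDC6 (-0.75) were lowest, and MCM6 (0.12) and PCNA (0.01) lay above 0. At least 2-fold lower were 0 of 9 with randomer and CDC45 with control oligo, 1 of 9, against 6.34% and 3.88% of genes, and 0 were higher with either, against 6.43% and 4.28%. No test of the difference between oligos over time was possible with 1 library each.

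**Figure D3:**
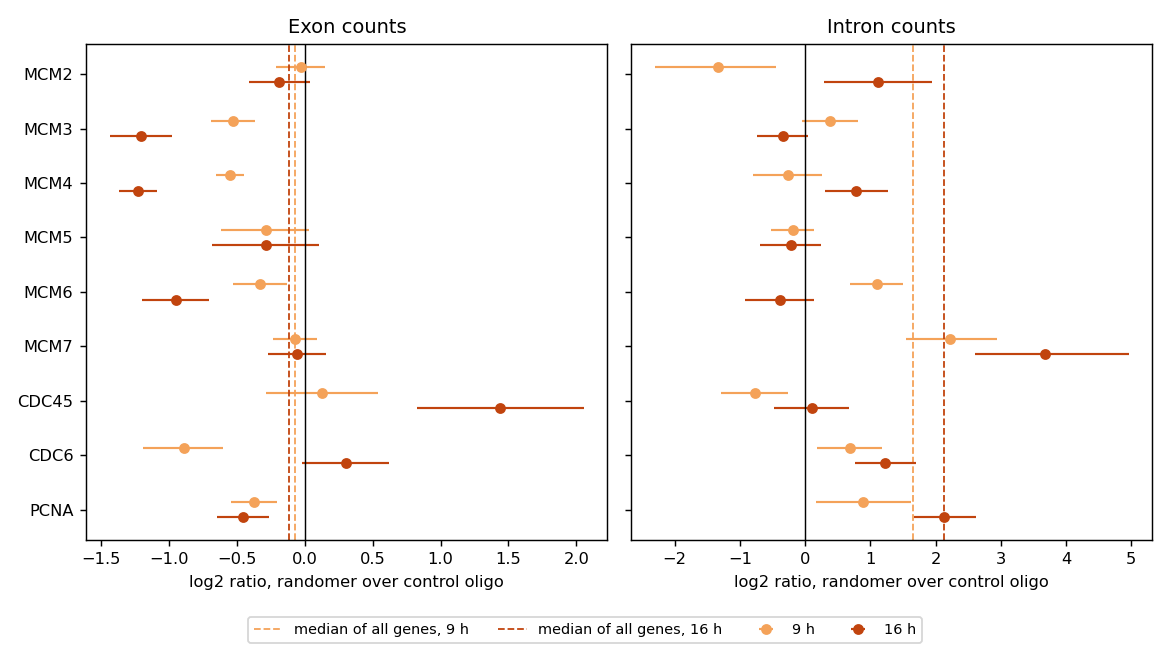
Log2 ratio of randomer over control oligo at 9 h and 16 h for exon counts (left) and intron counts (right), with 95% counting intervals, and dashed lines at the median of all genes averaging 50 or more counts. MCM3 and MCM4 lie lowest at 16 h in exon reads, at -1.21 and -1.23, and all intron points but those of MCM7 and PCNA at 16 h and MCM7 at 9 h lie left of the median line of their time.

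Per kilobase of exon, PCNA stood highest in all 5 libraries, with a mean level of 206 CPM per kb (range 159 to 266), and MCM4 second at 174 (83.4 to 235). MCM3 and MCM7 followed at 86.2 and 82.1 and changed places between libraries, as did MCM2 and MCM6 at 60.5 and 54.6. With randomer at 16 h MCM3, at 43.6, also lay below MCM2, at 46.8. MCM5, CDC6 and CDC45 were lowest, at 19.4, 18.8 and 17.4, with ranges that overlap, so their order is not set. Lengths are those of 1 principal transcript per gene in GENCODE v29, from 1359 bases for PCNA to 4810 for CDC6, and other transcripts would shift these levels.

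In intron reads MCM7 rose with randomer and the other 8 genes did not pass the test. MCM7 was 1 of 9 against 47.6% of 11983 genes tested, and 0 were called lower, against 0.0501%. The median fitted intron log2 change was 0.26 over the 9 genes and 1.96 over all genes. At an unadjusted p under 0.05, 2 were higher and 0 lower, against 6463 and 13 of the 11983 genes. DESeq2 called MCM7 and PCNA higher. With mock added to the control oligo arm, edgeR called PCNA higher and did not call MCM7. Exon library sizes were used here, so that the general gain of intron reads is kept. With the intron table scaled by itself, which takes out most of that gain (median over all genes 0.32), MCM3, MCM5 and CDC45 were called lower, 3 of 9 against 5.12% of genes, and 0 higher, against 15.5%, with log2 changes of -1.63, -1.84 and -1.98 (edgeR adjusted p = 0.0138, 0.00207 and 0.0111), and 8 of 9 lay below 0.

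MCM7 had 80 and 55 intron counts after 9 h and 16 h of randomer, against 24 and 8 in control oligo cells, with 30 in mock. Both randomer libraries lay above the other 3, and control oligo at 16 h stood lowest. Intron counts rose 7.41-fold (log2 change 2.89, SE 0.91, edgeR adjusted p = 0.0124), while randomer over mock at 16 h was 1.27 (0.60 to 1.96). With mock added to the control oligo arm the log2 change was 2.11 and the call was lost (edgeR adjusted p = 0.0594), and leaving out randomer at 9 h, randomer at 16 h or control oligo at 16 h without the time term gave 0.110, 0.0958 and 0.0736. Control oligo at 16 h had only 8 counts, and its log2 ratio over mock was -2.41 (-3.75 to -1.25).

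The introns of MCM7 carry 3 microRNA hairpins, shown because they share its transcript. The place of reads within an intron is not in the counts. Their mature forms, from RefSeq on GRCh38.p14 chromosome 7 and on the strand of MCM7, have the seed (bases 2 to 8) in capitals.
hsa-miR-106b-5p: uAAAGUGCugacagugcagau
hsa-miR-93-5p: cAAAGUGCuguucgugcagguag
hsa-miR-25-3p: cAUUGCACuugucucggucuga

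The first and second share the seed AAAGUGC, and the third has AUUGCAC. The exon table lists MIR106B at 1 and 21 counts after 9 h and 16 h of randomer, 0 at each time in control oligo cells, with 6 in mock, MIR93 at 7 with randomer at 9 h and 0 in the other 4 libraries, and MIR25 at 0 in all 5. The length and place of these reads are not in the counts, and mature microRNAs were not measured separately. AP4M1, which overlaps MCM7 on the opposite strand, had 2 and 21 intron counts with randomer, 24 and 5 in control oligo cells, with 3 in mock. The strand setting of the counting is unknown here, so reads of overlapping genes, such as MCM2 with TPRA1 over 45 bases and with the antisense AC023593.1 over 2331, cannot be told apart. PCNA holds an annotated snoRNA (RF00568) of 123 bases on its own strand, and its part in the PCNA reads was not tested.

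PCNA introns had 40 and 127 counts with randomer at 9 h and 16 h, 30 and 54 in control oligo cells, with 40 in mock. The 16 h randomer library stood above the other 4. The log2 change was 1.53 (SE 0.71, edgeR adjusted p = 0.0805), and the ratio over control oligo 0.89 at 9 h and 2.13 at 16 h (1.66 to 2.62). Without the time term the intron change of PCNA ranged from 0.40 without randomer at 16 h to 2.50 without randomer at 9 h. CDC6 introns had 75 and 88 counts with randomer, 65 and 70 in control oligo cells, with 45 in mock (log2 change 0.96, edgeR adjusted p = 0.234). MCM5 introns had 128 and 58 counts with randomer, 203 and 126 in control oligo cells, with 84 in mock (log2 change -0.20, edgeR adjusted p = 0.787), and CDC45 introns 46 and 42, 109 and 73, and 42 (log2 change -0.33, edgeR adjusted p = 0.733). The introns of MCM3 (88 and 79 with randomer, 94 and 187 with control oligo, 71 in mock cells), MCM4 (49 and 72, 82 and 78, 62), MCM6 (132 and 44, 86 and 107, 103) and MCM2 (14 and 29, 49 and 25, 37) had ratios of opposite sign at the 2 times, with fitted log2 changes from -0.10 to 0.37. At 9 h 2 of 9 were at least 2-fold higher and 1 lower, against 71.2% and 0.949% of 5794 genes, and at 16 h 4 were higher and 0 lower, against 79.1% and 0.897%.

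Within a gene, the share of intron reads sets both readouts side by side. The intron-to-exon ratio rose for MCM7 and PCNA, 2 of 9 against 34.6% of 9295 genes, and fell for 0, against 0.194%, by limma on log2 ratios. The median log2 change of the ratio was 0.997 over the 9 genes and 1.62 over all genes. For MCM7, introns held 13.5% and 16.6% of its reads with randomer at 9 h and 16 h, against 3.09% and 1.47% in control oligo cells, with 5.77% in mock, a log2 change of the ratio of 2.96 (SE 0.82, limma adjusted p = 0.0126). For PCNA the shares were 8.44% and 29.3% with randomer, 3.69% and 6.44% in control oligo cells, with 5.61% in mock (log2 change 1.92, SE 0.67, limma adjusted p = 0.0381). The exact intervals of both genes with randomer at 16 h lay above those of control oligo and mock, and for MCM7 they overlapped those of randomer at 9 h. For MCM4 the share was 12.7% with randomer at 16 h (10.1% to 15.8%) and 3.29% to 4.07% in the other 4 libraries, and its change did not pass (log2 change 1.15, limma adjusted p = 0.181).

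CDC45 was the 1 gene of the 9 whose fitted ratio lay below 0 (log2 change -1.10, limma adjusted p = 0.209): introns held 33.8% and 42.0% of its reads with randomer, 48.7% and 64.6% in control oligo cells, with 38.9% in mock. MCM5 kept a share between 39.8% and 50.0% in all 5 libraries. Summed over the 9 genes, introns held 15.002% and 23.2% of reads with randomer, against 9.94% and 11.0% in control oligo cells, with 9.47% in mock. The median gene of 8068 averaging 50 or more counts had 52.3% and 61.1%, 28.6% and 29.9%, and 31.8% in the same order. The calls of MCM7 and PCNA were lost with ratios centred on library medians (limma adjusted p = 0.334 and 0.765). That of MCM7 was also lost with mock added (0.0643) and without either randomer library (0.157 and 0.225). That of PCNA was lost without the time term (0.120) and without any 1 library (0.0892 to 0.479), where its log2 change ranged from 0.84 without randomer at 16 h to 2.996 without randomer at 9 h.

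**Figure D4:**
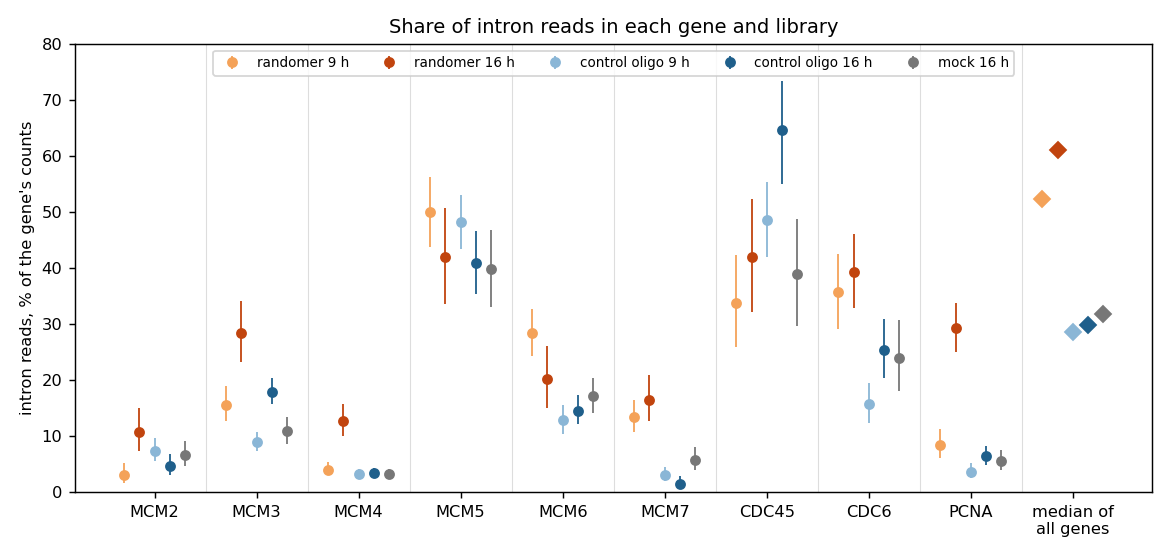
Share of intron reads among all reads of each gene (percent), 1 point per library with exact 95% intervals, and the median share of 8068 genes as diamonds. MCM7 and PCNA at 16 h stand above their control oligo and mock points, and MCM5 stays between 39.8% and 50.0%.

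Other genes of DNA replication were taken from 6 lists, whose counts of exon calls stand beside the 3.16% of all genes called lower and the 6.9% called higher. The licensing list held 13 genes: the origin recognition complex, CDT1 and GMNN, and also MCM8, MCM9, MCM10, MCMBP and MCM3AP. Membership of the list does not mean that a gene loads the ring. Of the 13, 0 were called either way, with 10 below 0 and a median log2 change of -0.41. ORC1, the largest subunit of the origin recognition complex, had 35 and 44 exon counts after 9 h and 16 h of randomer. It had 133 and 102 in control oligo cells, with 52 in mock (log2 change -0.88, edgeR adjusted p = 0.340). ORC2 (-0.56), MCM8 (-0.49) and GMNN (-0.41), the inhibitor of CDT1, did not pass. Of 16 genes of helicase activation and fork protection 0 were called, with 11 below 0 and a median of -0.29. The GINS subunit genes GINS2 (-1.24, edgeR adjusted p = 0.301), GINS1 (-0.77) and GINS4 (-0.63) and the checkpoint mediator CLSPN (-0.60) did not pass. Of 9 genes of nucleotide supply 0 were called, with 8 below 0 and a median of -0.35, led by RRM2, the small subunit of ribonucleotide reductase (-0.69, edgeR adjusted p = 0.0981), DUT (-0.61), DTYMK (0.54) and DCK (-0.44).

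Among 28 genes of polymerases, clamp loader and fork synthesis, FEN1 and TOP2A fell and POLE rose, 2 and 1 of 28 beside 3.16% and 6.9% of all genes, with a median of 0.01. FEN1, the flap nuclease that trims Okazaki fragments and binds PCNA, had 302 and 210 exon counts after 9 h and 16 h of randomer, 875 and 812 in control oligo cells, with 578 in mock, and fell 2.08-fold (log2 change -1.05, SE 0.25, edgeR adjusted p = 0.00182). Both randomer libraries lay below the other 3 in CPM, and its ratios at 9 h and 16 h were alike (-1.06 and -1.05). TOP2A, the topoisomerase of dividing cells, had a log2 change of -0.81 (edgeR adjusted p = 0.000522). It lies outside the rule for named genes and is given because it was called. POLE, the catalytic subunit of polymerase epsilon, had 603 and 339 exon counts with randomer, 467 and 252 in control oligo cells, with 291 in mock, and rose 2.12-fold (edgeR adjusted p = 0.00205). POLD3 (-1.01) and POLE4 (-0.89) did not pass. Without the time term FEN1 and TOP2A kept their calls and POLE did not (edgeR adjusted p = 0.0727), and leaving out single libraries ended the calls of FEN1 in 3 of 4 cases, of TOP2A in 2 and of POLE in 3.

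Of 23 regulators of the G1/S transition MYC and CDKN1A rose and 0 fell, beside 6.9% and 3.16% of all genes, with a median of 0.03. MYC, a transcription factor that promotes entry into S phase, had 392 and 453 exon counts with randomer, 267 and 260 in control oligo cells, with 188 in mock and rose 2.58-fold (edgeR adjusted p = 0.000111), a call lost without randomer at 16 h (0.105). CDKN1A, the p21 inhibitor of cyclin-dependent kinases and a PCNA binder, rose 1.62-fold (edgeR adjusted p = 0.0360, lost in 8 of 12 alternatives), and is named because it was called. E2F7 (1.01, edgeR adjusted p = 0.0797), RBL2 (-0.97) and E2F1 (0.82) did not pass. Of 13 genes that act with PCNA or in replication-coupled protein degradation, CUL4A and DDB1 fell 1.76-fold and 1.66-fold (edgeR adjusted p = 0.0217 and 0.0158). Both belong to the ubiquitin ligase that degrades CDT1 on PCNA. ATAD5, which unloads PCNA, rose 2.24-fold (edgeR adjusted p = 0.0303), and POLH (0.93) did not pass. The median of this group was 0.07, and its 2 lower calls and 1 higher call of 13 stand beside the same 3.16% and 6.9%. The calls of CUL4A, DDB1 and ATAD5 were lost without the time term (0.151, 0.109 and 0.102), and leaving out single libraries ended those of CUL4A and DDB1 in 3 of 4 cases and that of ATAD5 in 4. That of CUL4A was also lost with library totals without RN45S.

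In intron reads 3 of 13 genes of the licensing list (ORC4, MCM8 and MCM3AP) and 2 of 15 of helicase activation rose. So did 11 of 26 of fork synthesis, 1 of 9 of nucleotide supply, 8 of 23 G1/S regulators and 9 of 13 partners of PCNA. In each list 0 fell, with medians in the same order of 1.001, 0.94, 1.25, 0.37, 1.60 and 1.99. All of these shares stand beside the 47.6% of all genes, and whether the groups differ was not tested.

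By the course of exon levels over the 5 libraries, the genes nearest to the mean of the 9 were U2AF2, SGPL1, PTDSS1, TOR1AIP1 and FOXK1. The measure was the Euclidean distance between log2 CPM centred on each gene's mean, among 6593 genes, and ran from 0.08 for U2AF2 to 0.10 for FOXK1. The 9 genes themselves lay 0.26 (MCM5) to 1.36 (CDC45) from their own mean. That mean was lowest with randomer at 16 h (-0.38) and highest with control oligo at 9 h (0.29).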

How the data were processed

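The deposited data are raw counts per gene for exons and for introns, which the authors made with TopHat2, HTSeq and hg19, per the submitters' processing notes. Rows with symbols that had turned into dates, 28 in either file, were removed. Genes needed 10 or more counts in 2 or more libraries. edgeR 4.0.16 in R 4.3.3 was fitted to randomer and control oligo libraries, 4 in all, with an additive time effect, which leaves 1 residual degree of freedom. TMM-scaled exon library sizes served both files. Intron-to-exon log2 ratios, after adding 0.5 to each count, went to limma 3.58.1 with a variance trend on the smaller count. Benjamini-Hochberg adjustment ran over all genes tested. The time effect takes out the average difference between times. The p-values therefore measure counting noise and how far the oligo difference varied between both times, which may be technical. Spread between cultures of the same group was not measured. DESeq2 1.42.0, other scalings and filters, dropping the time effect, adding mock and leaving out single libraries were alternatives. Intervals (95%) cover counting error only, since each group is 1 library. They take each count as a separate molecule, and PCR copies, which are not independent, would make them too narrow. The fits were tested on simulated data. From each list of replication genes, up to 4 genes with the largest fitted exon change and a mean of 50 or more counts are named. The 9 genes and the lists were chosen with earlier results of these data known. Sequences are from RefSeq and lengths from GENCODE v29, both GRCh38, a build other than that of the counts, which were not placed by coordinates.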

Additional observations from a re-analysis of the deposited data

Results flagged for a closer look

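For 6 values the log2 ratio of randomer over control oligo had opposite signs at 9 h and 16 h, and with 1 library per group the difference between times was not tested. In exon reads this was CDC6, whose ratio was 1.19 higher at 16 h (0.30) than at 9 h (-0.89). In intron reads it was MCM2, at 1.11 at 16 h and -1.33 at 9 h, a difference of 2.44 with both counting intervals clear of 0 but only 14 to 49 counts per library. MCM3 introns were at -0.34 at 16 h and 0.38 at 9 h (difference -0.73), MCM4 introns at 0.78 and -0.26 (1.05), MCM6 introns at -0.38 and 1.10 (-1.48), and CDC45 introns at 0.10 and -0.77 (0.87).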

How the results depend on the processing

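No paired analysis was possible because each group is 1 library and the labels give no replicate numbers. The time term already sets the oligos against each other within each time. Fits with 1 library left out had no time term, since with it no residual degree of freedom remains. Of 1240 single values under an alternative, 1061 kept their direction and their side of the threshold or moved within their interval. The 2 members called lower in exon reads became 0 without the time term and 0 to 2 with 1 library left out, and no other alternative changed that count. Over all genes 360 lower exon calls became 237 with DESeq2 size factors, 239 with library totals without RN45S, 95 without the time term and 25 to 193 with 1 library left out, and 787 higher calls became 448 at a minimum of 50 counts and 166 to 527 with 1 library left out. The 1 member called higher in intron reads became 2 with DESeq2, 0 with TMM of the intron table and 0 to 1 with 1 library left out, and the 0 called lower became 3 with TMM of the intron table. The 6 lower intron calls over all genes became 3 with DESeq2 size factors, 3 without RN45S, 29 with DESeq2, 15 without the time term, 10 with mock added, 614 with TMM of the intron table and 1 to 13 with 1 library left out. The 5705 higher calls became 1858 with TMM of the intron table and 2384 to 5459 with 1 library left out. The 2 members with a higher ratio became 0 after centring, 1 without the time term, 1 with mock added and 0 to 1 with 1 library left out. Over all genes the 3215 higher and 18 lower ratio calls became 17 and 7 after centring and 0 to 2095 and 0 to 23 with 1 library left out, and the lower calls became 10 without the time term, 6 with mock added and 5 at a minimum of 50 counts.

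With library totals the log2 ratios of summed exon counts moved: for the 9 genes to -0.31 at 9 h, -0.77 at 16 h, -0.15 for control oligo over mock and -0.63 for randomer at 16 h over 9 h, and for MCM2 to MCM7 to -0.30, -0.14 and -0.77 at 9 h, for control oligo over mock and for randomer at 16 h over 9 h. Signs changed for values not called in the fit as reported, though MCM3 introns were called lower after theirs did (adjusted p = 0.0138, edgeR, TMM of the intron table). In exon reads MCM7 reached 0.0139 with library totals without RN45S, and with 1 library left out MCM2 ranged from -0.32 to 0.0944, MCM7 from -0.31 to 0.19 and CDC6 from -0.66 to 0.0935. With TMM of the intron table the intron changes of MCM3, MCM4, MCM6, CDC6 and PCNA were -1.63, -1.38, -1.27, -0.69 and -0.12, and MCM3 was -0.0601 without the time term. With 1 library left out introns ranged from -0.92 to 0.55 for MCM2, -0.48 to 0.53 for MCM3, -0.23 to 0.75 for MCM4, -0.60 to 0.18 for MCM5 and -0.23 to 0.92 for MCM6. After centring the ratio changes of MCM2, MCM3, MCM4, MCM5, MCM6 and CDC6 were -1.55, -0.68, -0.41, -1.48, -0.57 and -0.31, and with 1 library left out MCM2 ranged from -0.92 to 0.95 and MCM5 from -0.14 to 0.32. The cause of these shifts was not tested, other than that intron scaling and centring remove the general intron gain by construction. Depth limits the introns most: MCM7 had 8 and MCM2 14 counts in their lowest libraries.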
